A study of Mus musculus with 10 samples.

Results

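The 10 genes described here mark follicular helper T cells and the checkpoint receptors of activated T cells. They were chosen by name, and all 10 were among the 54987 genes listed. RNA was sequenced from the popliteal node, the lymph node behind the knee that receives lymph from the paw, of male BALB/c mice aged 6 to 8 weeks, on day 15. Acu (n = 3, libraries 4, 6 and 28) received 0.1 ml of complete Freund's adjuvant in the right hind paw and acupuncture at ST36, a point below the knee. AIA (n = 4, libraries 5, 10, 31 and 38) received the adjuvant alone, and Control (n = 3, libraries 15, 16 and 17) received the same volume of saline. The stated subject of the study is the effect of acupuncture on immune cell growth and polarization in arthritis.

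Follicular helper T cells are CD4+ T cells that enter B cell follicles and help germinal centre B cells through the cytokine interleukin 21 and through contact receptors. Their contacts with B cells are prolonged by receptors of the SLAM family, which signal through a small adaptor called SAP. Inhibitory receptors such as Pdcd1, Tigit, Lag3 and Havcr2 are switched on after T cell activation and restrain further signalling. Several of these genes are also used outside T cells, among them Havcr2 in macrophages and dendritic cells, Lag3 in plasma cells and Cd200 in endothelium and B cells.

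Some libraries stood apart from their labels. Each library held between 13269763 and 18926894 recovered reads. The 9 decidual and uterine genes examined reached a sum of 4234 FPKM (fragments per kilobase of gene, scaled to library size) in the library labelled Acu 4, and of 11650 FPKM in that labelled Control 17, against 6.91 to 13.7 FPKM in the other 8 libraries. The 10 trophoblast (placental) genes summed to 4669 and 68.7 FPKM in these 2 libraries, against at most 1.32 FPKM elsewhere. Such genes are at odds with the label of a lymph node from male mice. The 16 T cell genes examined came to 11.4 FPKM in the library labelled Acu 4, to 18.4 FPKM in that labelled Control 17 and to 8.40 FPKM in Control 15, with 3, 4 and 3 of them at 1 FPKM or more. They summed to between 387 and 804 FPKM in the other 7 libraries, with 16 of 16 at that level. Control 15 also held 10 adipocyte genes at a sum of 27876 FPKM and Control 16 at 9335 FPKM, against at most 408 FPKM elsewhere. Control 16 was the only Control library with the lymphocyte markers of the labelled tissue, and it also held the highest sum of 10 skeletal muscle genes, at 13527 FPKM, against at most 3556 FPKM in the other 9 libraries. AIA 10 had 15116 genes above 0, against at least 21224 in the other libraries. Results are given over all 10 libraries and over the 8 libraries without those labelled Acu 4 and Control 17.

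**Figure D1:**
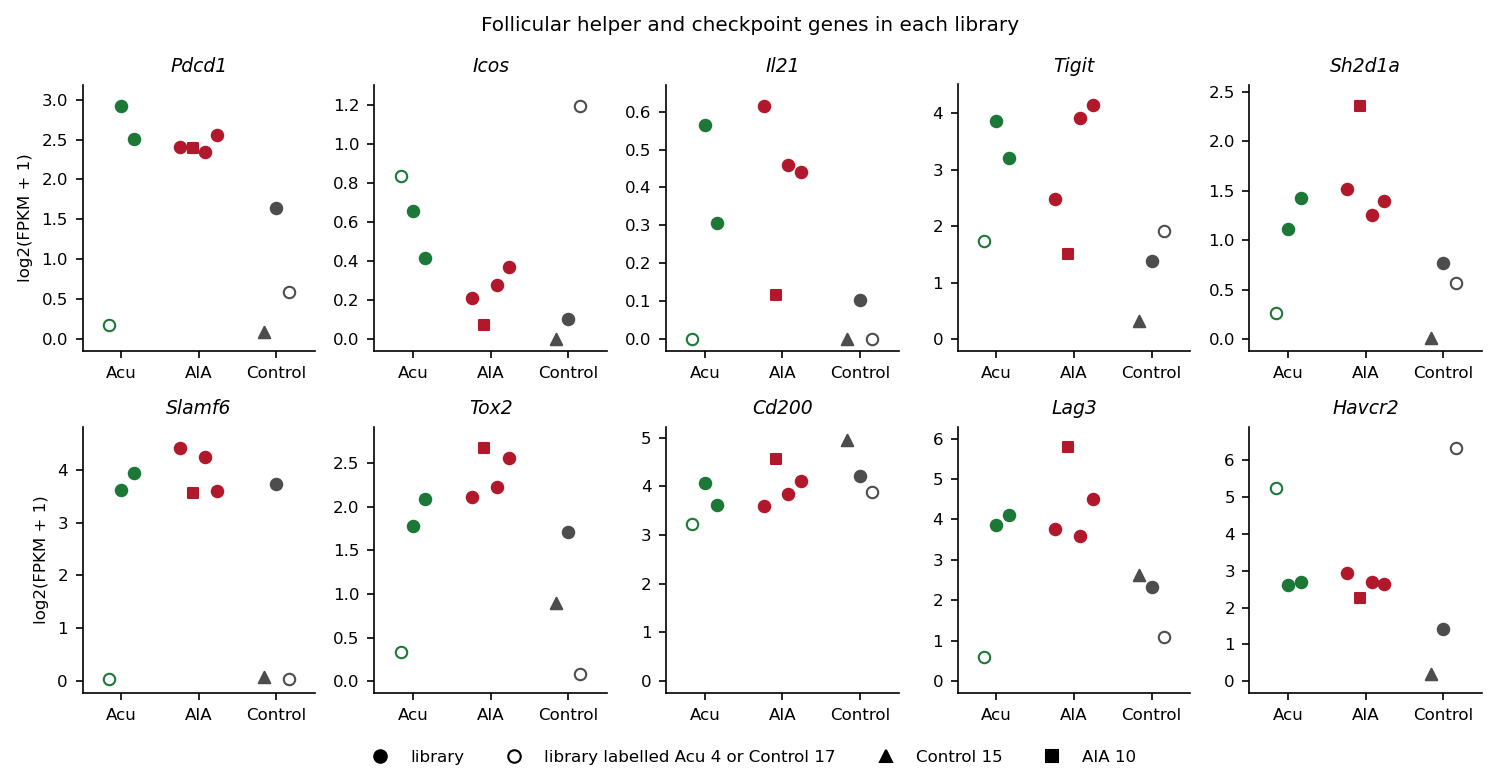
Level of each gene as log2(FPKM + 1), 1 point per library, in Acu, AIA and Control. Open circles are the libraries labelled Acu 4 and Control 17, the triangle is Control 15 and the square is AIA 10. In Pdcd1, Slamf6 and Il21 the open circles and the triangle lie near the bottom of the panel, while in Havcr2 and Icos the open circles lie at the top.

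AIA was compared with Control to ask how the adjuvant changed these genes in the draining node. In the 8 libraries Pdcd1 and Havcr2 rose in AIA, and Tigit, Lag3, Sh2d1a, Tox2 and Slamf6 stood higher without passing the threshold. Cd200 stood slightly lower. Of the 8 genes of the group that passed the filter on low values, 2 were called at a limma adjusted p under 0.05, both higher, against 13.4% of the 16067 genes tested in either direction and 4.36% in the higher direction. At an unadjusted p under 0.05, 7 of the 8 were higher, against 13% of the genes tested. The median log2 fold change was 1.70 for these 8 genes and 0.00 for all genes tested, and the median of the 8 was 0.82 without Control 15 as well. Over all 10 libraries 0 of 9 genes were called, against 0.0235% of 17010 genes tested, and 6 of 9 were higher at an unadjusted p under 0.05, against 11.6% of all genes. All AIA libraries lay above all Control libraries for 6 of 8 genes over the 8 libraries, against 18% of genes, and for 4 of 9 over all 10, against 11.4%. Over all 10, limma's voom on recovered reads called 0, against 0% of genes, and array weights called 5 (Pdcd1, Tigit, Sh2d1a, Slamf6 and Tox2), against 19.5% of genes. T cell genes moved in the same direction, at sums of 506 to 804 FPKM in AIA, against 8.40 and 387 FPKM in Control 15 and 16. Their median log2 fold change was 2.43 with 0 of 16 called over the 8 libraries, and 0.44 without Control 15 as well. Their part in these results was not tested. In this bulk RNA, fewer cells of a type and less RNA per cell cannot be told apart.

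The inhibitory receptors are described one by one. Pdcd1, the programmed cell death receptor that dampens T cell receptor signalling, is encoded on the minus strand of chromosome 1 (mm10, bases 94038305 to 94052553). It had 4.31, 4.25, 4.08 and 4.88 FPKM in AIA 5, 10, 31 and 38, against 0.0630, 2.11 and 0.506 FPKM in Control 15, 16 and 17. All 4 AIA libraries lay above all 3 Control libraries, and they lay close together at 4.38 ± 0.345 FPKM (SD, n = 4). Over the 8 libraries its log2 difference was 1.56 (SE 0.41, limma adjusted p = 0.0426). Over all 10 it was 1.65 (SE 0.62, limma adjusted p = 0.148).

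Havcr2, an inhibitory receptor of T cells that is also made by macrophages and dendritic cells, lies on chromosome 11 at 46454935 to 46481255, plus strand. It had 6.71, 3.79, 5.44 and 5.25 FPKM in AIA 5, 10, 31 and 38, against 0.134, 1.66 and 80.4 FPKM in Control 15, 16 and 17. AIA lay above Control 15 and 16 and far below that labelled Control 17. Havcr2 in the library labelled Acu 4 was also high at 36.9 FPKM. Over the 8 libraries the log2 difference was 1.84 (SE 0.38, limma adjusted p = 0.0189). Over all 10 it was −0.01 (SE 1.26, limma adjusted p = 0.996). Macrophage and monocyte genes, 13 of 13 at 1 FPKM or more in some library of each group, summed to 2209 to 3646 FPKM in AIA, against 664 and 579 FPKM in Control 15 and 16. In the libraries labelled Acu 4 and Control 17 they summed to 737 and 570 FPKM, with 13 of 13 at 1 FPKM or more in both. As a mean of log2(FPKM + 1) they stood at 4.54 and 4.02 there. The same mean was 4.12 and 3.38 in Control 15 and 16, and 4.68 to 5.41 in AIA. NK cell genes came to 249.9 FPKM in the library labelled Acu 4 and to 626 FPKM in that labelled Control 17, against at most 209 FPKM elsewhere, and the part of both lists in the Havcr2 values was not tested.

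The promoters of these 2 called genes and of Il21, the cytokine of the group, are shown because they hold different matches to the sites of factors that follow T cell activation. Each line is the 250 bases before the RefSeq transcription start (build GRCm38.p6), 5′ to 3′ on the strand of the gene. Capitals mark the NFAT core GGAAA, also read on the other strand as TTTCC, and the loose AP-1 pattern TGANTCA. In this pattern N is any base, and it reads the same on both strands. The windows are chr1:94052554-94052803 (minus strand) for Pdcd1, chr11:46454681-46454930 (plus strand) for Havcr2 and chr3:37232637-37232886 (minus strand) for Il21.
Pdcd1 promoter: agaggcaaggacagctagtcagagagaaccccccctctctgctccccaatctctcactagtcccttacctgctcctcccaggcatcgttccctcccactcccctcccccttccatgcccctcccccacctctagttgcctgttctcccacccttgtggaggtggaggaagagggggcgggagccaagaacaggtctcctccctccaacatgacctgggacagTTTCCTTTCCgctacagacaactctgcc
Havcr2 promoter: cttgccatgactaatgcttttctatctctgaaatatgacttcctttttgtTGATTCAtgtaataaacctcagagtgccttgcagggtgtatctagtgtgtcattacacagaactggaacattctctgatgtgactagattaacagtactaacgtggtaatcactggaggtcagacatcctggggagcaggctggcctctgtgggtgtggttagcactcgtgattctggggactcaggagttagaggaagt
Il21 promoter: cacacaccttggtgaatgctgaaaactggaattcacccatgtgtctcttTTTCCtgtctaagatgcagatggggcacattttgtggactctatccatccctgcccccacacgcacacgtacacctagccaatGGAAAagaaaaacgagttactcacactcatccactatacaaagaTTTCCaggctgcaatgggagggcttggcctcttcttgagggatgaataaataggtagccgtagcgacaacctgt
Pdcd1 held 2 NFAT cores next to each other shortly before the start, and Il21 held 3 spread over the window. Havcr2 held 0 NFAT cores and 1 match to the loose AP-1 pattern, TGATTCA, with T as the free base. The NFAT core was in 55.6% of 32817 RefSeq windows of this length and the AP-1 pattern in 6.75%, so these matches are a description of the letters. No overlap occurred between the 2 motifs. RefSeq windows were matched for 7 of the 10 genes, and Tigit held 2 NFAT cores while Slamf6 and Cd200 held 0. Tox2 had 5 starts, with 0 or 1 NFAT core in each window. For Tigit and Slamf6 the bases just after the start were not found in a GENCODE transcript of the gene, so their starts are less certain.

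Lag3, an inhibitory receptor that binds MHC class II, lies on chromosome 6 at 124904361 to 124911705, minus strand. It had 12.5, 54.6, 11.2 and 21.8 FPKM in AIA 5, 10, 31 and 38, against 5.22, 4.05 and 1.14 FPKM in Control 15, 16 and 17. Every AIA library was above every Control library, and AIA 10 stood highest. On the log2 scale the difference was 1.93 (SE 0.58, limma adjusted p = 0.0623) over the 8 libraries and 2.39 (SE 0.87, limma adjusted p = 0.141) over all 10. Of the plasma cell genes, 10 of 10 were at 1 FPKM or more in each AIA library, and 5, 7 and 5 of 10 in Control 15, 16 and 17. They summed to 3316, 4416, 2644 and 2800 FPKM in AIA 5, 10, 31 and 38, against 101 to 157 FPKM in Control. In Acu 4, 6 and 28 they summed to 227, 2624 and 1126 FPKM, with Lag3 at 0.506, 13.6 and 16.1 FPKM. The sum of T cell genes was also highest in AIA 10, at 804 FPKM. As a mean of log2(FPKM + 1), AIA 10 was highest in neither list. T cell genes stood at 4.91 there and 4.92 in AIA 5, and plasma cell genes at 5.59 there and 5.61 in AIA 38. The part of either list in the Lag3 values was not tested. Control 15 held Lag3 at 5.22 FPKM although its T cell genes were near 0.

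Tigit, a receptor that competes for the ligands Pvr and Nectin2, lies on chromosome 16 at 43648861 to 43664184, minus strand. It had 4.60, 1.83, 14.1 and 16.7 FPKM in AIA 5, 10, 31 and 38, against 0.253, 1.61 and 2.77 FPKM in Control 15, 16 and 17. AIA 31 and 38 were high, and AIA 10 overlapped Control, with 20 recovered reads behind its value. The difference on the log2 scale was 2.16 (SE 0.74, limma adjusted p = 0.0892) over the 8 libraries and 1.80 (SE 0.74, limma adjusted p = 0.171) over all 10.

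Among the helper genes, Sh2d1a encodes SAP, the adaptor that links SLAM receptors to kinases and is needed for stable contact between T cells and B cells. It lies on chromosome X at 42502453 to 42529330, plus strand, and had 1.86, 4.13, 1.38 and 1.63 FPKM in AIA 5, 10, 31 and 38, against 0.0111, 0.705 and 0.485 FPKM in Control 15, 16 and 17. The groups did not overlap, and AIA 10 was again highest. On the log2 scale the difference was 1.24 (SE 0.38, limma adjusted p = 0.0657) over the 8 libraries and 1.18 (SE 0.38, limma adjusted p = 0.115) over all 10.

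Slamf6, a self-binding SLAM receptor that signals through SAP, had 20.3, 10.8, 17.8 and 11.1 FPKM in AIA 5, 10, 31 and 38, against 0.0505, 12.3 and 0.0241 FPKM in Control 15, 16 and 17. Control 16 lay inside the AIA range, while the other 2 Control libraries, which held few T cell genes, were near 0. The difference on the log2 scale was 2.05 (SE 0.84, limma adjusted p = 0.144) over the 8 libraries and 2.68 (SE 1.08, limma adjusted p = 0.168) over all 10. It was 0.22 (SE 0.44, limma adjusted p = 0.854) once Control 15 was left out as well.

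Tox2, an HMG-box transcription factor of follicular helper cells, had 3.33, 5.40, 3.67 and 4.91 FPKM in AIA 5, 10, 31 and 38, against 0.859, 2.26 and 0.0575 FPKM in Control 15, 16 and 17. The groups did not overlap. On the log2 scale the difference was 1.09 (SE 0.33, limma adjusted p = 0.0607) over the 8 libraries and 1.501 (SE 0.49, limma adjusted p = 0.119) over all 10.

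Cd200, a surface ligand that quiets cells bearing Cd200r1, behaved differently. It had 11.2, 22.7, 13.4 and 16.3 FPKM in AIA 5, 10, 31 and 38, against 29.7, 17.6 and 13.8 FPKM in Control 15, 16 and 17. It was present in every library, also in those with few T cell genes, and was highest in Control 15. The log2 difference was −0.54 (SE 0.37, limma adjusted p = 0.370) over the 8 libraries and −0.31 (SE 0.37, limma adjusted p = 0.610) over all 10. Endothelial genes, 12 of 12 at 1 FPKM or more in some library of each group, summed to 142 to 219 FPKM in AIA. They summed to 646, 335 and 1120 FPKM in Control 15, 16 and 17. In Acu 4, 6 and 28 they came to 551, 184 and 193 FPKM, with Cd200 at 8.36, 15.7 and 11.2 FPKM. The part of endothelial genes in the Cd200 values was not tested.

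Icos and Il21 were close to the limit of detection. Icos, a costimulatory receptor of the CD28 family that follicular helper cells need, had 0.787, 0.575 and 0.334 FPKM in Acu 4, 6 and 28. It had 0.159, 0.0514, 0.213 and 0.292 FPKM in AIA 5, 10, 31 and 38, and 0, 0.0755 and 1.29 FPKM in Control 15, 16 and 17. The library labelled Control 17 was highest with 68 recovered reads, while the AIA libraries had 2 to 17. Icos passed the filter over all 10 libraries only with those labelled Acu 4 and Control 17, and was below it in the 8. The log2 fold change for AIA over Control was −0.20 (SE 0.29, limma adjusted p = 0.683) over all 10.

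Il21, the cytokine that drives germinal centre and plasma cell responses, had 0, 0.478 and 0.237 FPKM in Acu 4, 6 and 28. It had 0.531, 0.0839, 0.375 and 0.358 FPKM in AIA 5, 10, 31 and 38, and 0, 0.0738 and 0 FPKM in Control 15, 16 and 17. The AIA values rested on 41, 5, 35 and 32 recovered reads, and the Control 16 value on 6. A count of 0 allows up to 3 reads, or 0.0358 FPKM in the library labelled Acu 4, 0.0347 FPKM in Control 15 and 0.0372 FPKM in that labelled Control 17, for counting error only. AIA 5, 31 and 38 lay above the 3 Control libraries. AIA 10 lay above Control 16 in FPKM (0.0839 against 0.0738) but on fewer reads (5 against 6), so these 2 libraries are not set apart. Il21 was below the filter, and with no filter its log2 fold change for AIA over Control was 0.37 (limma adjusted p = 0.269).

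**Figure D2:**
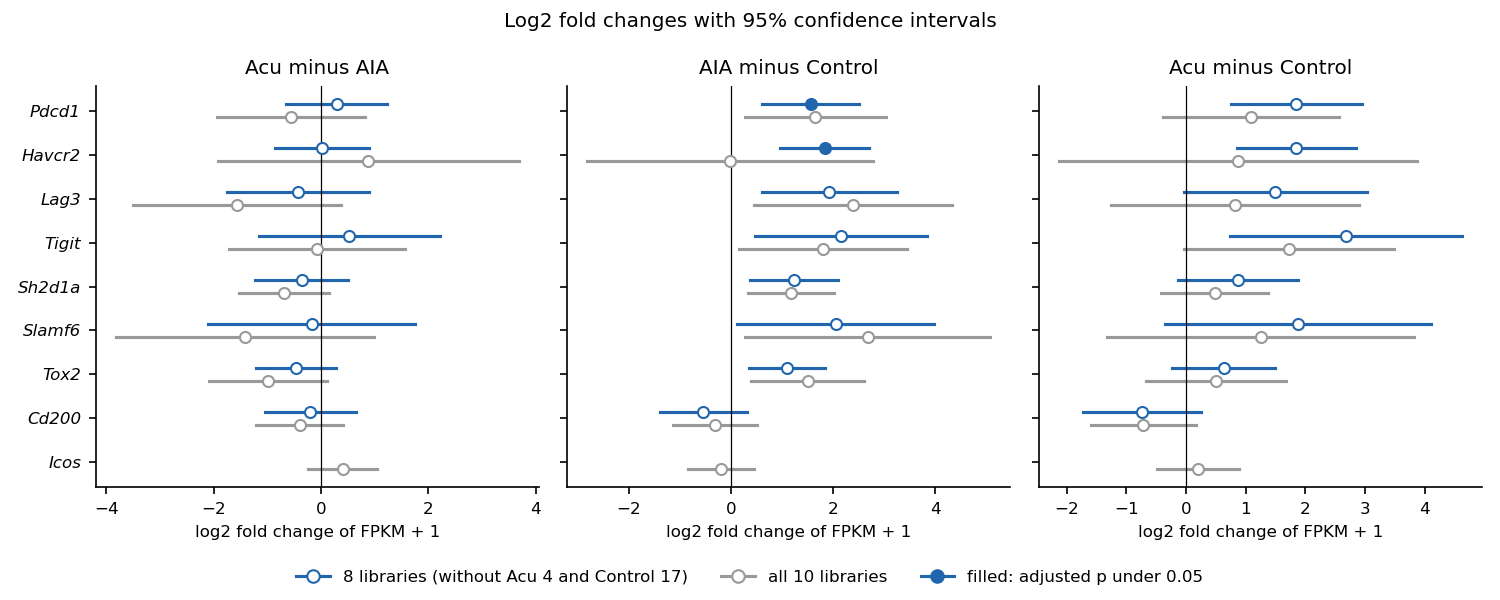
Log2 fold change of each tested gene (points) with its 95% confidence interval (lines) for the 3 comparisons, over the 8 libraries (blue) and all 10 (grey), with filled points where the adjusted p was under 0.05. Pdcd1 and Havcr2 are filled in AIA minus Control over the 8 libraries, and every interval of Acu minus AIA spans 0.

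The size of both changes depended on Control 15, and their adjusted p on other single libraries. Without Control 15 as well, Control was Control 16 alone, assumed to vary like the other groups. The log2 fold change was then 0.79 for Pdcd1 (SE 0.31, limma adjusted p = 0.273) and 1.22 for Havcr2 (SE 0.34, limma adjusted p = 0.129), and 0 of 8 genes were called, against 2.83% of genes tested. At an unadjusted p under 0.05, 3 of the 8 were then higher, against 5.85%. Havcr2 did not pass without AIA 5 (adjusted p = 0.0505) or AIA 38 (adjusted p = 0.0506), at log2 fold changes of 1.73 and 1.83. Pdcd1 did not pass without AIA 5, AIA 31, AIA 38, Acu 6 or Acu 28 (adjusted p from 0.0750 to 0.0970), while its log2 fold change stayed between 1.52 and 1.59. Without AIA 10, 5 of 8 passed (Havcr2, Lag3, Pdcd1, Sh2d1a and Tigit), against 21.5% of genes, and without Control 16, 4 of 8 passed (Havcr2, Pdcd1, Slamf6 and Tox2), against 18.5%.

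Ordered by the median FPKM of the 8 libraries, Cd200 was highest at 16.02, followed by Lag3 at 13.1, Slamf6 at 11.7, Tigit at 6.44, Havcr2 at 5.2 and Pdcd1 at 4.28 FPKM. Tox2 followed at 3.28, Sh2d1a at 1.51, Il21 at 0.297 and Icos at 0.186 FPKM. The ranges of all neighbours in this order overlapped. The order pools the groups: Lag3 had the higher median in Acu 6 and 28 (14.9 FPKM, against 13.5 FPKM for Cd200) and in AIA (17.2 FPKM, against 14.9 FPKM), and Cd200 in Control 15 and 16 (23.6 FPKM, against 4.64 FPKM for Lag3). Over all 10 libraries Icos and Il21 changed places, and Havcr2 and Pdcd1 stood above Tigit.

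Acu was compared with AIA to ask how acupuncture changed these genes under the adjuvant. None of the 8 genes tested in the 8 libraries was called, and none of the 9 over all 10 libraries. The share called among all genes was 0% in both fits, and at an unadjusted p under 0.05 the counts were 0 of 8 against 2.98% of genes and 0 of 9 against 4.7%. Over all 10 libraries voom and array weights also called 0 of these genes, against 0% and 0.576% of all genes. Pdcd1 had 0.130, 6.59 and 4.67 FPKM in Acu 4, 6 and 28, against 4.08 to 4.88 FPKM in AIA. The library labelled Acu 4 was far below AIA, Acu 6 was above every AIA library, and Acu 28 lay within the AIA range. Over the 8 libraries the log2 fold change of Pdcd1 was 0.29, with a 95% interval of −0.66 to 1.24, and over all 10 it was −0.56.

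Havcr2 was 5.15 and 5.42 FPKM in Acu 6 and 28, within the 3.79 to 6.71 FPKM of AIA, with a log2 fold change of 0.02 and a 95% interval of −0.85 to 0.89 over the 8 libraries. With the library labelled Acu 4 at 36.9 FPKM and all 10 libraries it was 0.88. Lag3 was 0.506, 13.6 and 16.1 FPKM in Acu 4, 6 and 28, against 11.2 to 54.6 FPKM in AIA, with a log2 fold change of −0.43 and an interval of −1.76 to 0.90 over the 8 libraries, and −1.56 over all 10. Tigit was 2.35, 13.5 and 8.28 FPKM in Acu 4, 6 and 28, against 1.83 to 16.7 FPKM in AIA, with a log2 fold change of 0.52 over the 8 libraries and an interval of −1.162 to 2.21. Acu 6 and 28 lay inside the AIA range for these 3 receptors. The value for Tigit was −0.07 over all 10 libraries and 0.44 over all 10 when FPKM were rescaled to a common sum.

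Tox2 was 0.259, 2.44 and 3.24 FPKM in Acu 4, 6 and 28, against 3.33 to 5.40 FPKM in AIA. All Acu libraries were lower, a pattern without overlap that 7.69% of genes showed in the 8 libraries and 5.1% over all 10. The log2 difference was −0.46 (SE 0.33, limma adjusted p = 0.984) over the 8 libraries and −0.996 (SE 0.49, limma adjusted p = 0.746) over all 10. Sh2d1a was 0.205, 1.165 and 1.68 FPKM in Acu 4, 6 and 28, against 1.38 to 4.13 FPKM in AIA, with a log2 fold change of −0.36 and an interval of −1.23 to 0.51 over the 8 libraries, and −0.70 over all 10. Slamf6 was 0.0348, 11.2 and 14.4 FPKM, against 10.8 to 20.3 FPKM in AIA, with a log2 fold change of −0.18 and an interval of −2.11 to 1.76 over the 8 libraries, and −1.42 over all 10. These intervals do not show that the groups were alike. Cd200 was 8.36, 15.7 and 11.2 FPKM in Acu 4, 6 and 28, against 11.2 to 22.7 FPKM in AIA. The log2 difference was −0.20 over the 8 libraries and −0.40 over all 10, and 0.13 over all 10 under the common sum. Icos had 0.334 to 0.787 FPKM in Acu, highest in the library labelled Acu 4, against 0.0514 to 0.292 FPKM in AIA on 2 to 17 reads. Every Acu library was thus above every AIA library, as in 6.04% of genes. Icos passed the filter only through Acu 6 and the libraries labelled Acu 4 and Control 17, and through no AIA library. This order is therefore no support for a difference. The log2 fold change of Icos was 0.40 (SE 0.29, limma adjusted p = 0.746) over all 10 libraries. Il21 in Acu 6 and 28 lay within the AIA range.

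Acu was also compared with Control, the group without adjuvant. None of the 8 genes was called over the 8 libraries, against 4.34% of genes tested, and none of 9 over all 10, against 0%. At an unadjusted p under 0.05, 3 of 8 were higher (Pdcd1, Tigit and Havcr2), against 10.1% of genes, and 0 of 9 over all 10, against 7.5% in either direction. Over all 10 libraries voom called 0, against 0% of genes, and array weights called 2 of 9 (Pdcd1 and Tigit), against 12.2%. Pdcd1 had a log2 fold change of 1.85 (SE 0.48, limma adjusted p = 0.0696), Havcr2 of 1.85 (SE 0.44, limma adjusted p = 0.0542) and Tigit of 2.68 (SE 0.85, limma adjusted p = 0.115) over the 8 libraries. Without AIA 10, which shares the estimate of spread, 4 of 8 were called (Havcr2, Lag3, Pdcd1 and Tigit), against 13.2% of genes, and without Control 16, 3 of 8 were called (Havcr2, Pdcd1 and Slamf6), against 13.1%. Without Control 15, 0 of 8 were called, against 0% of genes. The log2 fold changes were then 1.08 for Pdcd1 (limma adjusted p = 0.264), 1.24 for Havcr2 (limma adjusted p = 0.248) and 2.15 for Tigit (limma adjusted p = 0.496). In 6 of 8 genes both Acu libraries were above both Control libraries, as in 32.4% of genes tested. This comparison shares Control with the comparison of AIA and Control.

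Since the libraries differed in T cell genes, each level was also set against the summed FPKM of Cd3d, Cd3e and Cd3g, the chains of the T cell receptor complex. That sum was 82.9 and 101 FPKM in Acu 6 and 28, 98.4 to 229 FPKM in AIA and 70.8 FPKM in Control 16, and below 1 FPKM in the other 3 libraries, where no ratio is read. Control is then the single library Control 16, and the values are a description. Pdcd1 stood at 7.96% and 4.63% of the CD3 sum in Acu 6 and 28, at 3.11%, 1.86%, 3.41% and 4.96% in AIA 5, 10, 31 and 38, and at 2.98% in Control 16. Control 16 thus lay within the AIA range for Pdcd1, and Acu 6 lay above all other libraries.

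Lag3 stood at 16.5% and 15.99% in Acu 6 and 28, at 8.996% to 23.9% in AIA and at 5.72% in Control 16, which was lowest. Il21 stood at 0.577% and 0.235% in Acu 6 and 28, at 0.0366% to 0.383% in AIA and at 0.104% in Control 16. Tigit stood at 16.3% and 8.21% in Acu 6 and 28, at 0.800% to 16.9% in AIA and at 2.28% in Control 16. Havcr2 stood at 6.21% and 5.37% in Acu 6 and 28, at 1.66% to 5.34% in AIA and at 2.35% in Control 16. For Tigit, Havcr2 and Il21 Control 16 lay above AIA 10 and below the other AIA libraries. Sh2d1a stood at 1.41% and 1.67% in Acu 6 and 28, at 1.15% to 1.81% in AIA and at 0.996% in Control 16. Tox2 stood at 2.94% and 3.21% in Acu 6 and 28, at 2.36% to 4.99% in AIA and at 3.20% in Control 16. On this scale Acu and Control 16 lay inside the AIA range for Tox2, unlike in FPKM. Slamf6 and Cd200 were highest in Control 16, at 17.3% and 24.8%, against 4.74% to 14.9% and 8.05% to 16.6% in AIA. In the libraries with a CD3 sum below 1 FPKM, Cd200 had 8.36 to 29.7 FPKM, Havcr2 up to 80.4 FPKM and Lag3 up to 5.22 FPKM. The percentages of these genes are therefore not levels per T cell. In AIA 10 the chains were out of proportion, with Cd3d at 155 FPKM and Cd3e at 12.6 FPKM, against 34.8 to 52.7 FPKM for Cd3d and 30.5 to 36.4 FPKM for Cd3e in the other AIA libraries.

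**Figure D3:**
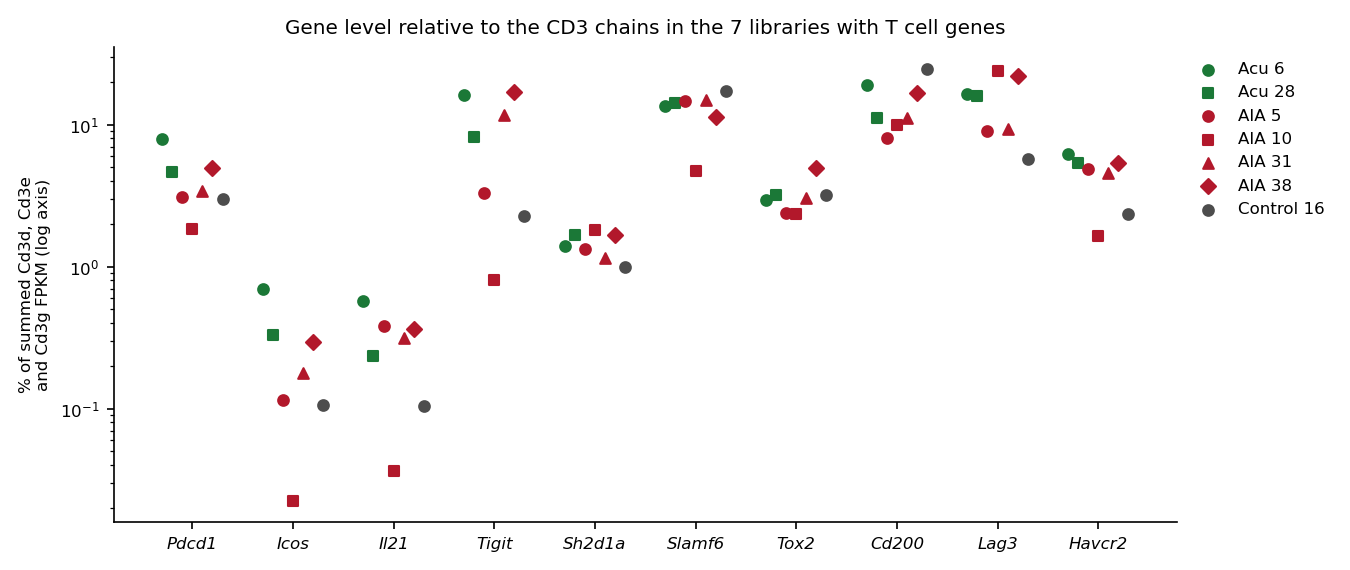
Each gene as a percent of the summed FPKM of Cd3d, Cd3e and Cd3g (log axis) in the 7 libraries with T cell genes, 1 point per library. Control 16 lies below both Acu libraries and all AIA libraries for Lag3 and Sh2d1a, and above them for Slamf6 and Cd200.

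Genes that work with this group were taken from lists. Among other follicular helper genes, 3 of 21 tested were called higher and 1 lower in AIA than in Control over the 8 libraries. Of all genes tested, 4.36% were called higher and 13.4% in either direction. The median log2 fold change of the list was 0.64 against 0.00 for all genes. Irf4 and Batf, transcription factors of activated lymphocytes, rose by 2.10 (SE 0.39, limma adjusted p = 0.0128) and 3.02 (SE 0.70, limma adjusted p = 0.0270). Irf4 is also among the plasma cell genes examined above, and the part of plasma cells in its rise was not tested. Tnfsf8, the CD30 ligand, rose by 2.01 (SE 0.46, limma adjusted p = 0.0256). Id3, which restrains follicular helper development in mice, fell by 1.27 (SE 0.32, limma adjusted p = 0.0364). It stood at 79.1, 51.8 and 40.0 FPKM in Control 15, 16 and 17, against 22.3 to 29.9 FPKM in AIA. Its level was thus highest in Control 15, a library with few T cell genes, and is not a level per T cell. Bcl6, the transcription factor that defines follicular helper and germinal centre cells, stood at 7.91, 11.6, 6.61 and 6.87 FPKM in AIA 5, 10, 31 and 38, against 6.94, 8.66 and 5.76 FPKM in Control 15, 16 and 17. The log2 difference was 0.05 (SE 0.30, limma adjusted p = 0.937). Cxcr5, the homing receptor for follicles that B cells also carry, stood at 2.12 (SE 1.21, limma adjusted p = 0.278).

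Among the partner ligands and receptors, 2 of 12 were called higher, against 4.36% of genes tested, and 0 lower, with a median of 0.71. These were the ligands of Pdcd1. Cd274 had 27.0, 32.8, 22.6 and 33.1 FPKM in AIA 5, 10, 31 and 38, against 7.81, 9.88 and 5.52 FPKM in Control 15, 16 and 17, and rose by 1.59 (SE 0.30, limma adjusted p = 0.0129). Pdcd1lg2 had 3.61, 4.61, 4.14 and 5.72 FPKM in AIA, against 0, 1.81 and 0.673 FPKM in Control, and rose by 1.71 (SE 0.41, limma adjusted p = 0.0319). Neither ligand overlapped between the groups. Lgals3 stood at 1.89 (limma adjusted p = 0.0718), the interleukin 21 receptor Il21r at 2.43 (limma adjusted p = 0.166), the Icos ligand Icosl at 0.30 (limma adjusted p = 0.875) and Cd200r1 at 0.01 (limma adjusted p = 0.988).

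Among other T cell checkpoint and costimulation genes, 5 of 13 were called higher, against 4.36% of genes tested, and 0 lower, with a median of 1.84. Entpd1, an enzyme that breaks down extracellular ATP, rose by 1.84 (SE 0.40, limma adjusted p = 0.0211), Cd160 by 1.26, Cd226, the activating partner of Tigit, by 1.42 and Tox, a relative of Tox2, by 1.08. Of the SLAM family and its adaptors 4 of 11 were called higher, against the same 4.36% of genes, and 0 lower, with a median of 1.304. Slamf8, which is made by myeloid cells, rose by 2.32 (SE 0.40, limma adjusted p = 0.0101), Slamf7 by 2.41, Cd48 by 2.32 and Ly9 by 2.29. Foxp3, the transcription factor of regulatory T cells, stood at 1.38 (limma adjusted p = 0.220). Ctla4 was below the filter in the 8 libraries, at up to 0.719 FPKM in AIA and 0 FPKM in Control 15 and 16, and reached 3.61 FPKM in the library labelled Control 17. Over all 10 libraries 0 genes of these 4 lists were called, against 0.0235% of genes tested. Control 15 was then left out besides the libraries labelled Acu 4 and Control 17, so that Control was Control 16 alone. Without Control 15 the log2 fold change moved by less than 1.5 times for Cd274 at 1.44, Entpd1 at 2.07, Irf4 at 1.77 and Slamf8 at 1.85. It was smaller by more than 1.5 times for Batf at 1.57, Tnfsf8 at 1.164, Pdcd1lg2 at 0.96, Cd48 at 1.14 and Ly9 at 0.97. These are sizes of the change with Control 16 alone, and no calls are read from them. Of the genes not called, Cxcr5 then stood at −0.07, Il21r at 0.02, Foxp3 at 0.14 and Icosl at −1.40. The medians of the 4 lists were then 0.15 for other follicular helper genes, 0.11 for partners, 0.77 for checkpoint genes and 0.97 for the SLAM family. In Acu minus AIA 0 genes of these lists were called over the 8 libraries or over all 10, against 0% of genes in both.

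**Figure D4:**
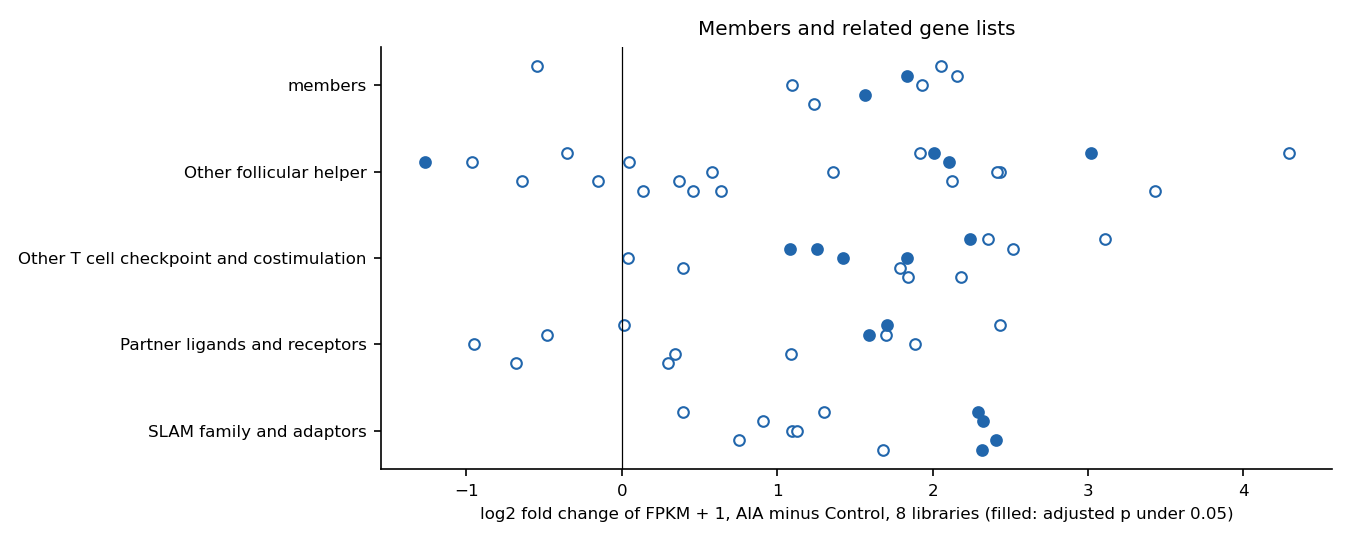
Log2 fold change of FPKM + 1, AIA minus Control over the 8 libraries, 1 point per tested gene, for the group and 4 related lists, with filled points where the adjusted p was under 0.05. The group has 2 filled points of 8, and Id3 is the only filled point below 0.

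The genes whose centred log2(FPKM + 1) profile over the 10 libraries lay nearest were found among 13090 protein-coding genes, by the root mean square difference. Ero1lb (0.180) and Inpp5d (0.209) lay nearest to Pdcd1, whose own spread was 1.02. Traf3ip3 (0.297) and Gpr183 (0.308) lay nearest to Slamf6, Ccnb1 (0.410) and Hmmr (0.470) to Tigit, and Jaml (0.208) and Ccm2 (0.213) to Tox2. Tnfaip2 (0.295) and Shisa3 (0.329) lay nearest to Havcr2 and Tpm3-rs7 (0.305) and Cenps (0.444) to Lag3. Gm6904 (0.125) and Mak16 (0.141) lay nearest to Sh2d1a, Glo1 (0.186) and Opa1 (0.204) to Cd200, and Zdhhc21 (0.0756) and Cdk7 (0.106) to Icos. The libraries with few T cell genes weigh heavily in these profiles.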

How the data were processed

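RNA sequencing of 10 popliteal lymph node libraries was used. The authors deposited FPKM for 54987 genes, with gene lengths, names and coordinates. The tools named, without role, are DESeq2 1.16.1, featureCounts 1.5.0-p3, HISAT2 2.0.5 and StringTie 1.3.3b, and the build is mm10, per the submitters' processing notes. Whether counting used strand: not given in the sources used here. Icos, Il21, Sh2d1a and Slamf6 overlap another gene in GENCODE vM21, at no more than 0.290 FPKM in any library. Multiplied by gene length, FPKM fell on whole steps for 100% of values above 0, within 0.01 of a step, which gave the recovered reads. Median-of-ratios factors were 1 in every library, so the deposited values were already scaled in that way.

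Genes with at least 0.5 FPKM in at least 3 libraries were tested on log2(FPKM + 1), which understates the change of low genes. limma 3.58.1 in R 4.3.3 fitted the libraries together with a mean-variance trend, and p-values were adjusted by Benjamini and Hochberg over all genes tested (threshold 0.05). SE is limma's moderated standard error. No label ties a library to a separate mouse. The p-values therefore reflect the spread among libraries, which may be technical. The script was tested on simulated data. The genes, lists and tests were chosen with earlier results of these data known. Named list genes are up to 4 with the smallest p of each list plus a fixed set, and the 2 nearest profiles per gene. List symbols shared by several gene IDs were left out. Alternatives were the pseudocount, filter, scaling, voom, array weights and left-out libraries. Python 3.11.15, numpy 2.4.6, pandas 2.3.3 and matplotlib 3.10.9 were used.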

Additional observations from a re-analysis of the deposited data

How the results depend on the processing

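No paired analysis was possible because the groups share no replicate number. The genes called between AIA and Control over all 10 libraries numbered 4, and the number changed with nearly every choice: 1 with no filter, 0 with a pseudocount of 0.1, 0 with voom, 3319 with array weights, 407 with FPKM rescaled to a common sum, 2156 without the libraries labelled Control 17 and Acu 4, and 443 without Control 15 as well. Leaving out single libraries gave 0 to 1713 (1713 when the one labelled Acu 4 was absent, 967 for the one labelled Control 17, 7 for AIA 10), and 1058 to 3398 besides those labelled Control 17 and Acu 4. Genes of the group called were 0, with 5 under array weights, 2 without the libraries labelled Control 17 and Acu 4, 0 to 3 leaving out single libraries (3 without the library labelled Acu 4: Pdcd1, Tox2 and Lag3) and 0 to 5 besides those labelled Control 17 and Acu 4. For Acu minus AIA, all genes called were 0, with 2 under no filter, 98 under array weights, 1 under the common sum and 0 to 1 leaving out libraries, and 0 of the group in all. For Acu minus Control they were 0, with 1 under no filter, 2067 under array weights, 1 under the common sum, 698 without those 2 libraries, 0 to 303 leaving out single libraries and 0 to 2096 besides those 2. Of the group 2 were called under array weights and 0 to 4 leaving out libraries. FPKM as deposited gave the same counts. The common sum and the leaving out of a further library besides those labelled Control 17 and Acu 4 were chosen after the data were seen. The common sum moved the median gene to −0.36 for AIA minus Control, 0.50 for Acu minus AIA and 0.17 for Acu minus Control, against −0.07, 0.08 and 0.02.

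Signs turned in these cases. Havcr2 for AIA minus Control was 0.72 with a pseudocount of 0.1, 1.05 with voom, 1.23 with array weights, 1.84 without the 2 libraries, 1.22 without Control 15 as well, and between −1.25 and 2.45 leaving out libraries. Icos was 0.73 with voom and 0.069 with array weights. For Acu minus AIA, Pdcd1 was 0.31 with array weights and 0.29 without the 2 libraries, with or without Control 15. Tigit was 0.44 under the common sum and 0.52 without the 2 libraries, with or without Control 15. Cd200 was 0.027 with array weights and 0.13 under the common sum, and Lag3 was 0.077 with array weights. Leaving out libraries gave, for Acu minus AIA, −1.09 to 0.50 for Pdcd1, −0.58 to 0.90 for Tigit, −0.61 to 0.027 for Cd200, −2.19 to 0.028 for Lag3, −0.11 to 1.33 for Havcr2. Leaving out libraries gave, for Acu minus Control, −0.014 to 0.31 for Icos, −0.37 to 2.72 for Havcr2. The cause of these turns was not tested. Depth limits Icos and Il21, which had at most 68 and 51 recovered reads.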
